A study of Mus musculus with 12 samples.

Results

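The 9 genes described here are the embryonic globins Hba-x, Hbb-bh1 and Hbb-y, the transcription regulators Gata1, Klf1, Tal1 and Lmo2, the haem enzyme gene Alas2 and the receptor gene Epor. They were taken by symbol from the array annotation, 9 of the 18193 genes that it names, and 13 of the 34945 probe sets with a single gene named. The probe set with the highest mean over 12 arrays stands for each gene. After the 40% of probe sets with the lowest means were set aside, 6 of the 9 genes stood among the 13066 genes tested, while Hbb-y, Klf1 and Alas2 did not and are described by their levels.

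RNA came from D3, a mouse embryonic stem (ES) cell line, kept on a feeder layer of MMC-treated embryonic fibroblasts and differentiated through embryoid bodies, which are aggregates that form derivatives of the germ layers. The 4 groups of 3 arrays were NP day8 (day 8 of differentiation with the agent labelled NP), BPA day8 (day 8 with the agent labelled BPA), control day8 (day 8 with no agent) and control day0 (day 0 with no agent). Neither the agents' full names nor their doses are in the labels, which also leave unsaid whether feeder cells were removed and whether the 3 samples of a group came from separate cultures. The p-values therefore cover the spread among these samples, which may be technical. All groups share the cell line, the feeder layer and the array platform.

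Blood first forms in the mouse embryo in the yolk sac, where mesoderm gives rise to blood islands next to endothelium and beneath visceral endoderm. The first red cells of these islands carry embryonic haemoglobin, with alpha-like chains from Hba-x (zeta globin) and beta-like chains from Hbb-bh1 and Hbb-y. TAL1 and LMO2 act in a complex that is needed for blood formation, GATA1 drives red cell maturation, and KLF1 acts on the CACCC boxes of globin promoters. Embryoid bodies are a standard culture model of this first wave, and fewer red cells and less globin RNA per cell cannot be told apart in the values below.

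Every array had a mean signal of 100 after 2% of values were trimmed at each end, and the share of probe sets above background was 58.2% to 62.2% per array. The background level is the highest value of 3 bacterial control probe sets over 12 arrays, a log2 signal of 3.41, and it stands in for detection calls, which were not used here. The ES cell label was borne out by Pou5f1, the gene of the pluripotency factor OCT4, whose mean log2 signal was 10.48 in NP day8, 10.56 in BPA day8, 7.64 in control day8 and 11.45 in control day0. The median change of all 13066 genes was 0.12 on the log2 scale in control day8 against control day0 and at most 0.04 in size between the day-8 groups.

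The promoters of the alpha-like and beta-like embryonic globin genes Hba-x and Hbb-y are shown because the main probe sets of both were high on every control day8 array and under background on every day-0 array, although they sit on chromosomes 11 and 7. The sequences are the 250 bases before the annotated start of each gene in RefSeq (GRCm38.p6). Capitals mark GATA motifs (GATA with A or T before it and A or G after it), the CACCC box (CACCC), the CCAAT box (CCAAT) and the TATA box (TATAAA), each on either strand. Those of Hba-x (chr11:32276350-32276599, plus strand) and Hbb-y (chr7:103853208-103853457, minus strand) read 5′ to 3′:
Hba-x: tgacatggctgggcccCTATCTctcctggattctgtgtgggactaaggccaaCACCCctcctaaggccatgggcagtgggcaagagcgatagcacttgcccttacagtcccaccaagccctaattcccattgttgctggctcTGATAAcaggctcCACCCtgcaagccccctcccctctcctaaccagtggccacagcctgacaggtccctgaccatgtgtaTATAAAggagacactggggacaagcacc
Hbb-y: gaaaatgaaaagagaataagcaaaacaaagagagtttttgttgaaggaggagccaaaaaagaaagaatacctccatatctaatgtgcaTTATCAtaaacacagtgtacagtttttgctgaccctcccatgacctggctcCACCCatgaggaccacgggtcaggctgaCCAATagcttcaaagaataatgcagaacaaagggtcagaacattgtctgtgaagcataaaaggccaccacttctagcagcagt
The Hba-x window held 2 GATA motifs, 2 CACCC boxes and a TATA box 28 bases before the start. The Hbb-y window held 1 GATA motif, 1 CACCC box and 1 CCAAT box, and none of its motifs overlapped. Of 32851 promoter windows of this length, 26.5% held a GATA motif, 52.0% a CACCC box, 33.8% a CCAAT box and 12.4% a TATA box. A match describes the letters and is not a measured binding site.

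The regulators' own promoters can be set beside these. The table held 8 windows for 7 of the 9 genes, and names Klf1 at chr8:84901732-84901981 (plus strand), shown because its window holds a GATA motif, a CACCC box and a CCAAT box, as that of Hbb-y does, with the same capitals:
Klf1: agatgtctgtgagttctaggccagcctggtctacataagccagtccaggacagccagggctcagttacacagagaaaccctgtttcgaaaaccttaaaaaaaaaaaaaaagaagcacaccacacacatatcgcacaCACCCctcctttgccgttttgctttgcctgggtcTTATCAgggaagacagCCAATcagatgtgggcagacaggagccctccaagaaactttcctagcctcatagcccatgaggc
Alas2 and Epor each held a GATA motif and CACCC boxes, and Gata1 held 2 CACCC boxes and no GATA motif in this window. Of the 2 windows for Tal1, 1 held a GATA motif and a CACCC box and the other held none of the motifs searched. E-boxes (CANNTG), the general motif of TAL1 and its partners, stood in 66.2% of all windows, and in those of Hba-x, Klf1, Epor and Gata1.

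In control culture the embryonic globins and the regulators Tal1 and Lmo2 rose by day 8. Of the 6 genes tested, 4 passed as higher in control day8 than in control day0 (limma, Benjamini-Hochberg adjusted over 13066 genes, threshold 0.05), where 28.3% of all genes passed as higher. The 3 arrays of control day8 lay above all 3 of control day0 for 6 of the 9 genes and for 5 of the 6 tested, against 32.5% of all genes tested. The median change of the 6 was 3.56 on the log2 scale, beside 0.12 for all genes tested. Hba-x passed the filter only through its high control day8 signals, with a mean of 2.91 against a lowest kept mean of 2.79. Its place in these counts and in the median is therefore not independent of its rise.

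Hba-x encodes zeta globin, the alpha-like chain of the first embryonic haemoglobin. Its log2 signals were 7.59, 7.21 and 7.48 in control day8, against -1.13, -0.34 and -0.97 in control day0, where all 3 arrays lay under the background level. The day-8 arrays lay close together and far above every day-0 array. The change was 8.24 ± 1.65 (log2, SE, n = 3 each, limma adjusted p = 0.00255), and since day 0 was at background it is given as at least 16.3-fold higher.

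Hbb-bh1 encodes a beta-like embryonic chain and had 3 probe sets, of which 1437810_a_at was the brightest. It gave 9.87, 9.19 and 9.32 in control day8, against 3.57, 2.52 and 3.82 in control day0, and the groups did not overlap. The change was 6.15 ± 2.07 (log2, SE, limma adjusted p = 0.0326), or 5.86 with values under background set to that level. Leaving out any single control array of either day took the adjusted p past the threshold, to between 0.0596 and 0.0862. The other probe sets, 1437990_x_at and 1450736_a_at, lay under background on every day-0 array, and their changes with each probe set tested on its own were 8.69 (adjusted p = 0.00572) and 9.64 (adjusted p = 0.00711).

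Hbb-y encodes the epsilon-like beta chain of embryonic red cells and lies beside Hbb-bh1 on chromosome 7, where RefSeq orders the cluster as Hbb-bt, Hbb-bs, Hbb-bh2, Hbb-bh1 and Hbb-y with 2 pseudogenes among them. Its main probe set gave 7.47, 5.84 and 8.81 in control day8, against -0.04, -1.19 and -1.17 in control day0. All day-8 values lay above background and all day-0 values under it, so the level was at least 15.6-fold higher at day 8. In the test without the filter on low values, which covered 18193 genes, the change was 8.17 (adjusted p = 0.000369), where 18.7% of all genes passed as higher. The suffix x_at marks probe sets with probes that can bind other transcripts, so signal between these neighbouring paralogs is uncertain for those probe sets. Such signal was not measured for any probe set.

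**Figure D1:**
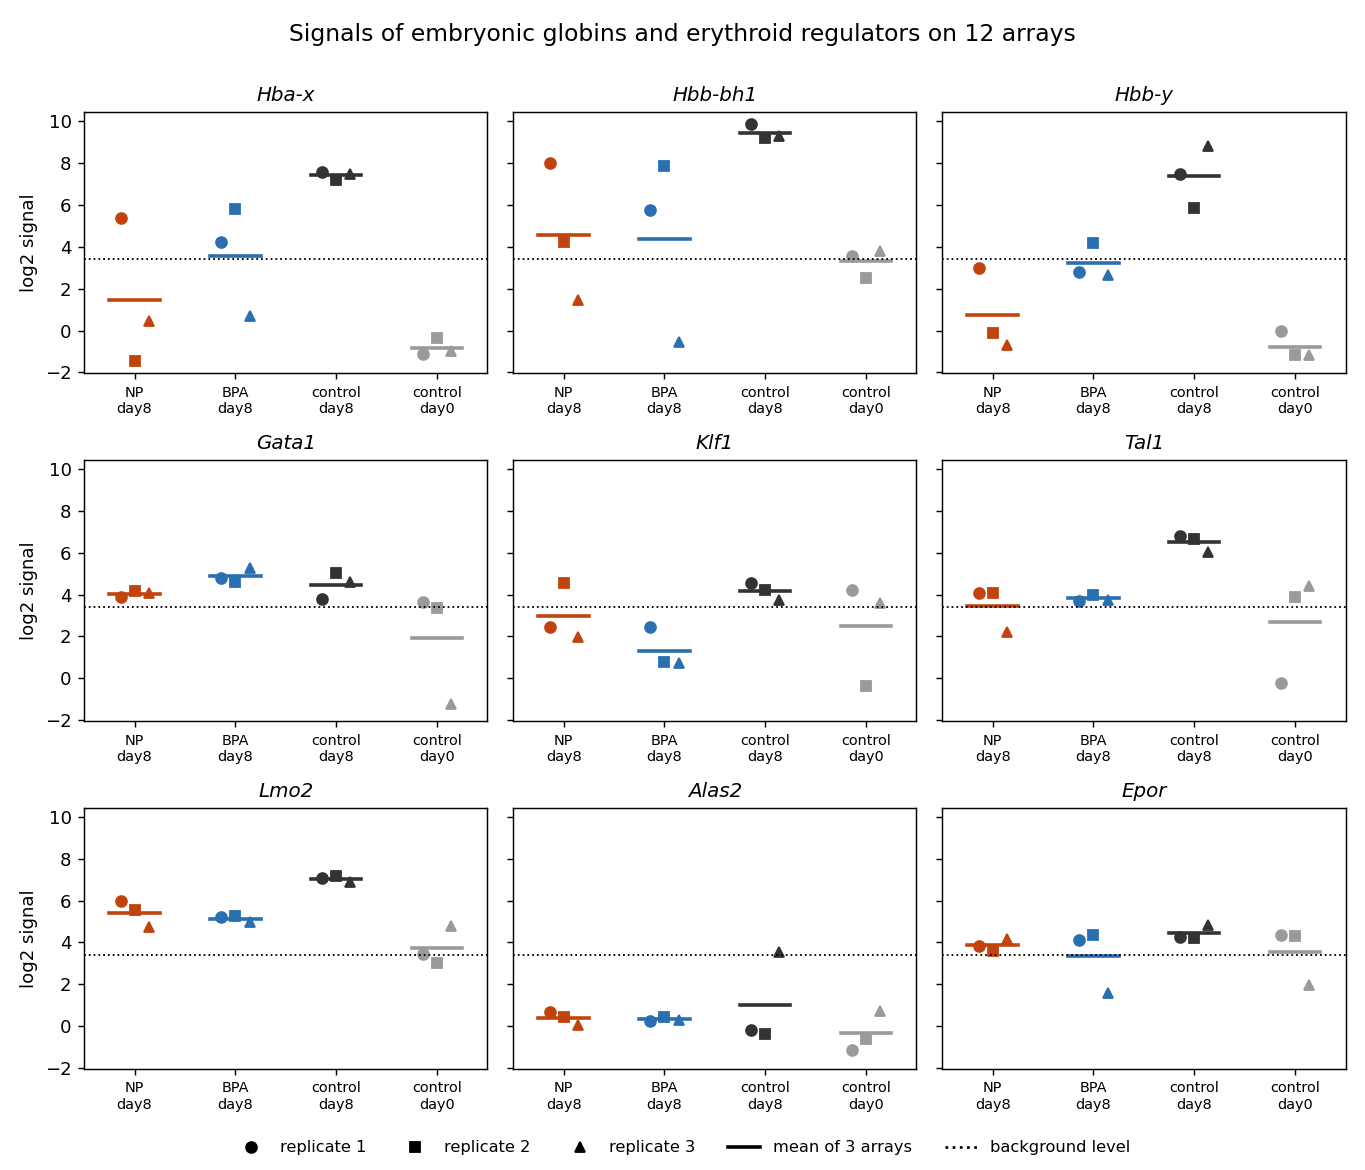
Log2 signal of the main probe set of each of the 9 genes (vertical axis) on each of the 3 arrays of NP day8, BPA day8, control day8 and control day0 (horizontal axis), with bars at the group means and a dotted line at the background level of 3.41. The 3 globins lie above 5.8 on each control day8 array, and on the treated arrays Hba-x and Hbb-bh1 spread more widely than on the control day8 arrays.

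Tal1 and Lmo2, partners in the complex that sets up the blood programme, followed the globins in control culture. Tal1 gave 6.80, 6.66 and 6.04 in control day8, against -0.21, 3.89 and 4.40 in control day0. The groups did not overlap, and the change was 3.80 ± 1.04 (log2, SE, limma adjusted p = 0.0132). Replicate 1 of control day0 lay under background and below the others, and with low values set to background the change was 2.60 (adjusted p = 2.93e-05). With only the control groups in the fit the Tal1 call was lost (adjusted p = 0.0584). Lmo2 gave 7.07, 7.18 and 6.91 in control day8, against 3.42, 3.02 and 4.76 in control day0. It had the smallest standard error of the 6 tested genes, with a change of 3.32 ± 0.42 (log2, SE, limma adjusted p = 0.000191), and it passed in every alternative and with every array left out.

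Gata1 and Klf1, which act later in red cell maturation, gave lower and less even signals. Gata1 gave 3.78, 5.02 and 4.61 in control day8, against 3.64, 3.34 and -1.21 in control day0, and the groups did not overlap. Its change of 2.55 ± 1.05 (log2, SE) missed the threshold (limma adjusted p = 0.0719). Without replicate 1, 2 or 3 of control day0 the adjusted p was 0.0297, 0.0434 and 0.0420, so the gene passed without any 1 of these arrays. Replicate 3 lay under background, and without it the change was 0.98, against 3.41 and 3.26 without replicates 1 and 2. Klf1 gave 4.56, 4.23 and 3.76 in control day8, against 4.22, -0.35 and 3.61 in control day0, and the groups overlapped.

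Alas2, the red-cell form of the first enzyme of haem synthesis, lay above background on 1 of 12 arrays, replicate 3 of control day8, at a log2 signal of 3.55. The remaining control day8 arrays gave -0.21 and -0.39, against -1.15, -0.63 and 0.74 in control day0. Epor, the erythropoietin receptor gene, gave 4.28, 4.21 and 4.85 in control day8, against 4.36, 4.31 and 1.96 in control day0. Its groups overlapped and its change was 0.90 ± 0.79 (log2, SE, limma adjusted p = 0.386). Epor therefore gave no call where the globins rose, and Alas2 was too dim to be tested.

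With either agent the day-8 values of the globins, Tal1 and Lmo2 lay below those of control day8, but few of these differences passed. In NP day8 against control day8, 2 of the 6 tested genes passed as lower, Hba-x and Lmo2, where 6.28% of all genes passed as lower. In BPA day8 against control day8, 1 of 6 passed as lower, Lmo2, where 10.2% of all genes passed as lower. The treated arrays lay wholly below the control day8 arrays for 6 of the 9 genes with each agent. Among the 6 tested this held for 5 with NP, against 17.1% of all genes tested, and for 4 with BPA, against 19.2%. The median change of the 6 was -2.33 with NP and -2.29 with BPA, beside 0.01 and 0.04 for all genes tested. Both comparisons use the same 3 control day8 arrays. Those arrays also carried Hba-x past the filter, so its place in these counts and medians is not independent of its lower treated values.

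Hba-x gave 5.39, -1.48 and 0.46 in NP day8 and 4.21, 5.82 and 0.70 in BPA day8, against 7.59, 7.21 and 7.48 in control day8. Every treated array lay below the control range, with 1 array of NP and 2 of BPA above the background level. The change was -5.97 ± 1.65 with NP (log2, SE, limma adjusted p = 0.0412) and -3.85 ± 1.65 with BPA (adjusted p = 0.127). With values under background set to that level the changes were -3.36 with NP (adjusted p = 0.00393) and -2.95 with BPA (adjusted p = 0.00486). The NP call was lost without BPA replicate 1, NP replicate 2 or 3, or any 1 of the control arrays of either day, with adjusted p between 0.0544 and 0.131, and it held in 8 of 22 alternatives in all. Without NP replicate 1 both agents passed, NP at -7.94 (adjusted p = 0.00562) and BPA at -3.85 (adjusted p = 0.0412). The BPA change passed in 3 of 22 alternatives in all, with limma adjusted p up to 0.357.

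Hbb-bh1 gave 8.01, 4.24 and 1.44 in NP day8 and 5.74, 7.88 and -0.54 in BPA day8, against 9.87, 9.19 and 9.32 in control day8. Every treated array lay below every control day8 array, and the treated arrays spanned 6.57 log2 units with NP and 8.43 with BPA, beside 0.68 in control day8. The changes were -4.90 ± 2.07 with NP (log2, SE, limma adjusted p = 0.153) and -5.10 ± 2.07 with BPA (adjusted p = 0.108). The remaining probe sets gave changes of -5.58 and -5.12 with NP and of -4.15 and -5.47 with BPA, none past the threshold. With low values set to background, a setting chosen after seeing the data, the main probe set passed with NP (-4.24, adjusted p = 0.0315) and with BPA (-3.78, adjusted p = 0.0372). In all, Hbb-bh1 passed in 2 of 25 alternatives with NP and 3 of 25 with BPA. The limma adjusted p reached 0.398 with NP and 0.293 with BPA.

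Hbb-y gave 2.97, -0.12 and -0.68 in NP day8 and 2.80, 4.18 and 2.65 in BPA day8, against 7.47, 5.84 and 8.81 in control day8. All 3 NP arrays lay under background, so the level was at least 15.6-fold lower with NP than in control day8. In the test without the filter the changes were -6.65 with NP (adjusted p = 0.00767) and -4.16 with BPA (adjusted p = 0.0302), where 2.82% and 5.65% of all genes passed as lower. The second probe set, 1436823_x_at, gave the same order of groups with means of -1.23 in NP day8, 3.18 in BPA day8 and 7.43 in control day8. The third, 1450621_a_at, gave 1.31, -0.33 and -1.26 in NP day8 and -1.40, 4.12 and 3.37 in BPA day8, against 4.56, 4.10 and 6.61 in control day8. On it the BPA arrays overlapped the control arrays, and the NP level was at least 3.21-fold lower.

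**Figure D2:**
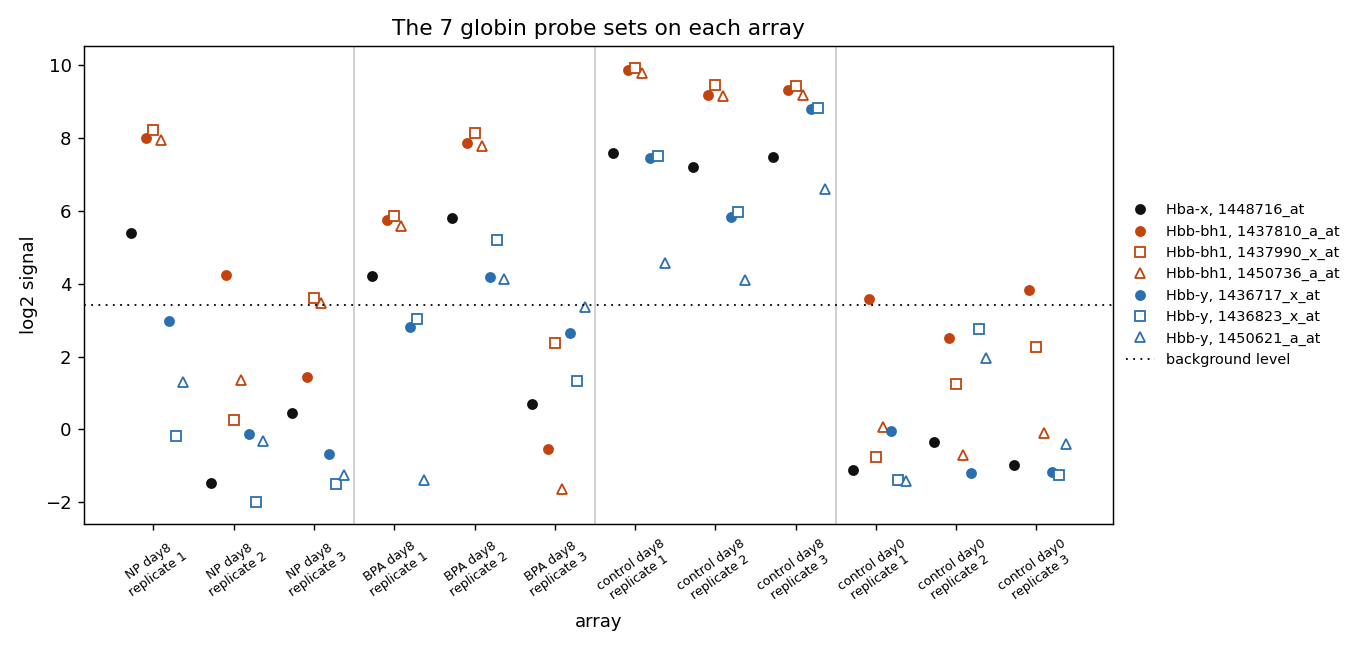
Log2 signal (vertical axis) of the 7 probe sets of Hba-x, Hbb-bh1 and Hbb-y on each array (horizontal axis), with filled points for main probe sets, open points for the others and a dotted line at background. Hba-x and Hbb-bh1 lie highest on NP replicate 1 and lowest on BPA replicate 3 within their groups, the probe sets of Hbb-y do not share 1 order on the BPA arrays, and all 7 probe sets lie above background on the control day8 arrays.

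The main probe sets of Hba-x and Hbb-bh1 lay above background on NP replicate 1 and BPA replicates 1 and 2 and under it on NP replicate 3 and BPA replicate 3. Hbb-y followed them less closely, since its main probe set lay above background on 1 treated array, BPA replicate 2, and gave 2.80 and 2.65 on BPA replicates 1 and 3. The mean log2 signal of the 3 globins was 5.46, 0.88 and 0.41 in NP day8 and 4.25, 5.96 and 0.93 in BPA day8, against 8.31, 7.41 and 8.54 in control day8 and 0.80, 0.33 and 0.56 in control day0. By this mean replicates 2 and 3 of NP and replicate 3 of BPA were near the level of undifferentiated cells, while replicate 1 of NP and replicates 1 and 2 of BPA lay between the control groups. Over 12 arrays, which share the 4 group means, Pearson's r was 0.86 between Hba-x and Hbb-bh1, 0.92 between Hba-x and Hbb-y and 0.78 between Hbb-bh1 and Hbb-y. Over the 6 treated arrays alone it was 0.76, 0.83 and 0.52 in the same order. Probe sets of one gene correlated at 0.84 to 0.95 for Hbb-bh1 and 0.83 to 0.89 for Hbb-y.

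The spread of Hba-x and Hbb-bh1 among treated arrays was large beside that of other genes. The standard deviation of Hba-x was 3.54 in NP day8 and 2.62 in BPA day8, against 0.20 in control day8, and that of Hbb-bh1 was 3.30 in NP day8 and 4.38 in BPA day8, against 0.36 in control day8. Hbb-y did not share this contrast, with 1.96 in NP day8 and 0.84 in BPA day8, against 1.49 in control day8. The median standard deviation over all genes tested was 0.21 in NP day8, 0.20 in BPA day8 and 0.22 in control day8. Of the 6 treated values of Hba-x 3 lay under the background level, and so did 2 of the 6 of Hbb-bh1.

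Lmo2 and Tal1 were more even within the treated groups. Lmo2 gave 5.97, 5.54 and 4.74 in NP day8 and 5.23, 5.24 and 4.95 in BPA day8, against 7.07, 7.18 and 6.91 in control day8, with all 9 values above background. Every treated array lay below every control day8 array. The change was -1.64 ± 0.42 with NP (log2, SE, limma adjusted p = 0.0328), a 3.11-fold lower signal, and -1.91 ± 0.42 with BPA (adjusted p = 0.0114), a 3.77-fold lower signal. The BPA call held in all 23 alternatives, with adjusted p up to 0.0415. The NP call was lost without NP replicate 2 (adjusted p = 0.0819), NP replicate 3 (0.109) or any 1 control day8 array (0.0547 to 0.0926), and it held in 15 of 23 alternatives.

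Tal1 gave 4.10, 4.09 and 2.23 in NP day8 and 3.71, 4.0 and 3.75 in BPA day8, against 6.80, 6.66 and 6.04 in control day8. No treated array reached the lowest control day8 array. The changes of -3.02 ± 1.04 with NP (log2, SE, limma adjusted p = 0.0868) and -2.68 ± 1.04 with BPA (adjusted p = 0.0959) missed the threshold in a fit whose spread for Tal1 includes the day-0 array at -0.21. Without that array, replicate 1 of control day0, both passed, with adjusted p of 0.00653 with NP and 0.00620 with BPA. With low values set to background both passed too, at -2.63 with NP (adjusted p = 0.000263) and -2.68 with BPA (adjusted p = 0.000147). In all, each change passed in only 5 of 22 alternatives, with limma adjusted p up to 0.251 with NP and 0.211 with BPA.

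Gata1 did not follow Lmo2 and Tal1 in its values. It gave 3.89, 4.18 and 4.07 in NP day8 and 4.78, 4.62 and 5.26 in BPA day8, against 3.78, 5.02 and 4.61 in control day8, and both treated groups overlapped the control. The changes were -0.42 with NP (95% confidence interval -2.78 to 1.94, limma adjusted p = 0.835) and 0.42 with BPA (-1.94 to 2.78, adjusted p = 0.816). Intervals this wide cover changes of the size seen for Lmo2. Klf1 gave 2.47, 4.55 and 1.98 in NP day8 and 2.45, 0.78 and 0.71 in BPA day8, against 4.56, 4.23 and 3.76 in control day8. All 3 BPA arrays lay under background and below the control day8 arrays, at least 1.71-fold lower, and without the filter no Klf1 comparison passed. With 16 added to the linear signal the BPA change of Klf1 was -0.87 and passed (adjusted p = 0.0417).

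Alas2 gave 0.68, 0.44 and 0.03 in NP day8 and 0.22, 0.44 and 0.31 in BPA day8, all under background, against -0.21, -0.39 and 3.55 in control day8, so no fold is given. Epor gave 3.81, 3.59 and 4.18 in NP day8 and 4.13, 4.37 and 1.57 in BPA day8, against 4.28, 4.21 and 4.85 in control day8. The NP arrays lay just below the control arrays and the BPA arrays overlapped them. The changes were -0.58 ± 0.79 with NP (log2, SE, limma adjusted p = 0.679) and -1.09 ± 0.79 with BPA (adjusted p = 0.371).

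**Figure D3:**
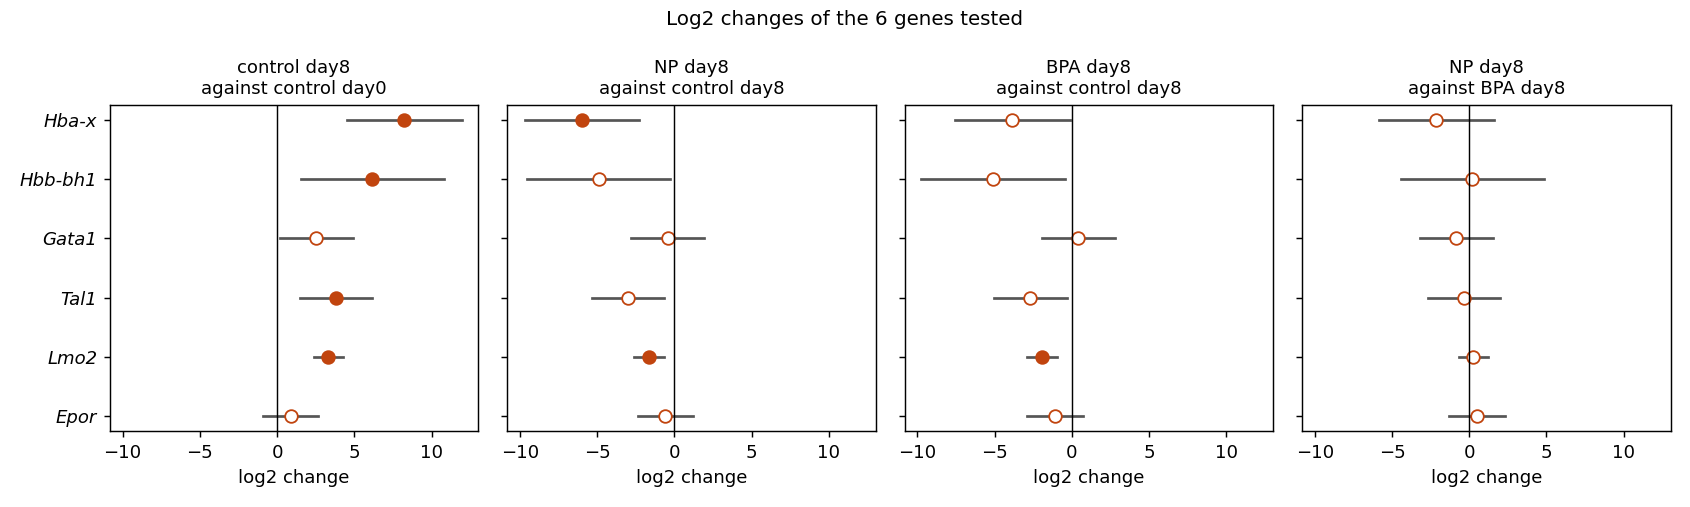
Log2 change of the 6 tested genes (rows) with its 95% confidence interval (horizontal axis), with 4 panels for the change over time in control culture, for NP and for BPA at day 8 against their control, and for NP over BPA, filled where the limma adjusted p was under 0.05. The interval is narrowest for Lmo2 and wide for the globins, and the calls are Hba-x and Lmo2 with NP, Lmo2 with BPA, and Hba-x, Hbb-bh1, Tal1 and Lmo2 between the control days, with no filled point for NP over BPA.

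NP and BPA were also compared directly at day 8. None of the 6 tested genes passed (0 by limma adjusted p and 0 at an unadjusted p under 0.05), where 0.00765% of all genes passed in either direction. Hba-x differed by -2.12 (95% confidence interval -5.83 to 1.59), Hbb-bh1 by 0.20 (-4.43 to 4.84), Tal1 by -0.35 (-2.68 to 1.99) and Lmo2 by 0.28 (-0.68 to 1.23) on the log2 scale in NP day8 against BPA day8. Lmo2 had the narrowest interval and the globins the widest, so differences between the agents of several log2 units in the globins were not detectable with 3 arrays a group. By main probe sets Gata1 was the 1 gene of the 9 whose groups did not overlap. It lay at 3.89 to 4.18 in NP day8 and 4.62 to 5.26 in BPA day8 (change -0.84, limma adjusted p = 0.882). Among all genes tested 17.0% did not overlap. The Hbb-y probe set 1436823_x_at did not overlap either, at -2.01 to -0.18 in NP day8, under background, and 1.33 to 5.19 in BPA day8. Doses are not given in the labels, so the agents were not compared at known matched doses.

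Set against undifferentiated cells, Lmo2 was the gene that passed with both agents. Its change against control day0 was 1.68 ± 0.42 in NP day8 (log2, SE, limma adjusted p = 0.0142), where 20.2% of all genes passed as higher, and 1.41 ± 0.42 in BPA day8 (adjusted p = 0.0297), where 21.7% passed. The Lmo2 group means thus stood in the order control day8, then NP day8 and BPA day8, whose difference did not pass the test, then control day0. The arrays of NP day8 and control day0 overlapped, with replicate 3 at 4.74 in NP day8 and at 4.76 in control day0. The NP call was lost without NP replicate 1 (adjusted p = 0.0554) or control day0 replicate 1 (0.0508), and the BPA call without any 1 BPA array or replicate 1 or 2 of control day0 (0.0566 to 0.0996). These comparisons share the day-0 arrays.

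For the globins the same comparison with day 0 gave wide values. Hba-x differed from control day0 by 2.27 in NP day8 (limma adjusted p = 0.332) and by 4.39 in BPA day8 (adjusted p = 0.0673), and all 3 BPA arrays lay above the day-0 arrays. The BPA difference passed without BPA replicate 3 (adjusted p = 0.0300), NP replicate 1 (0.0175) or NP replicate 2 (0.0464). Hbb-y, tested without the filter, differed by 4.01 in BPA day8 (adjusted p = 0.0239), where 13.1% of all genes passed as higher, but its mean of 3.21 lay under background and with 16 added to the linear signal the difference was 0.64 (adjusted p = 0.366). Hbb-bh1 differed by 1.26 in NP day8 and 1.05 in BPA day8, and Tal1 by 0.78 in NP day8 and 1.13 in BPA day8, with no call. The other Hbb-bh1 probe sets differed more, 1437990_x_at by 3.11 in NP day8 and 4.54 in BPA day8 and 1450736_a_at by 4.52 in NP day8 and 4.17 in BPA day8, none past the threshold. Gata1 differed by 2.97 in BPA day8 (adjusted p = 0.0549), and passed without replicate 1, 2 or 3 of control day0 (0.0288, 0.0409 and 0.0140). Without replicate 3, the day-0 array under background, that difference was 1.40.

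The regulators can be set beside the globin mean array by array. Over the 12 arrays Pearson's r with that mean was 0.84 for Lmo2, 0.72 for Tal1, 0.49 for Epor, 0.43 for Alas2, 0.36 for Gata1 and 0.33 for Klf1. These values describe arrays that share group means and in part lie at background. Among all tested genes outside the 9, the 10 with the highest r were Rspo3 (0.97), Csrp2 (0.96), Dpp8 and Zfp46 (0.95 each), Rasl11b, Zfp275, Myh10 and Rgs5 (0.94 each), and Bmp5 and Nrp1 (0.93 each). Rspo3, which encodes a secreted enhancer of Wnt signalling, gave 5.87, 4.8 and 4.33 in NP day8 and 5.86, 6.27 and 3.99 in BPA day8, against 7.50, 7.31 and 7.23 in control day8 and 4.34, 4.73 and 4.70 in control day0. Rgs5, a marker of pericytes, gave 6.30, 4.74 and 4.79 in NP day8 and 5.86, 6.05 and 4.51 in BPA day8, against 8.80, 8.85 and 8.33 in control day8 and 2.76, 3.28 and 3.11 in control day0. In both genes the treated arrays with high globin signals were also the higher ones of their groups. This follows from choosing them by their r with the globin mean over these same arrays, and shows nothing further.

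Other genes of the red cell pathway did not form a uniform set. Beside the counts for this and the following lists, 7.90% of all genes tested passed as higher and 6.28% as lower with NP, 12% and 10.2% with BPA, and 28.3% and 20.5% between the control days. Adult globins, which replace the embryonic chains later in development, had 3 of 6 listed genes on the array and 1 tested, Hba-a2, with 0 calls in any comparison. Among 11 tested genes of haem synthesis, 4 passed as higher and 3 as lower in control day8 against control day0, close to the shares of all genes. They included Alad (0.83 ± 0.17, log2, SE) and Fech (0.74 ± 0.14), the enzymes of the second and the last step of the pathway, as higher and the mitochondrial carrier gene Slc25a38 (-0.73 ± 0.21) as lower. In NP day8 against control day8 only Slc25a39, a mitochondrial carrier gene, passed (0.52 ± 0.10), and in BPA day8 3 passed, all higher, Slc25a39 (0.75 ± 0.10), Alas1 (0.63 ± 0.18) and Urod (0.37 ± 0.09). Alas1 is the form of the first haem enzyme used in all tissues.

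Among 12 tested genes of the red cell membrane and enzymes, 1 passed as higher and 3 as lower in control day8 against control day0, where 28.3% and 20.5% of all genes did. Tmod1, which caps actin filaments in the membrane skeleton and in muscle, rose (3.28 ± 0.75), and Dmtn, an actin-bundling protein, fell by 2.39 (SE 0.31). With NP 2 passed as higher and 0 as lower, and with BPA 3 passed as higher and 2 as lower. Dmtn rose with NP (1.64 ± 0.31) and BPA (1.68 ± 0.31), as did Car2, a carbonic anhydrase (1.11 ± 0.21 with NP and 0.73 ± 0.21 with BPA). Gypc, a membrane glycoprotein of red cells, fell by 2.18 (SE 0.64) with BPA. Rhd lay higher with BPA, at 6.13, 5.51 and 5.28, against 3.07, 3.41 and 3.98 in control day8 and 4.63, 2.74 and 5.43 in NP day8. Trim10 lay lower with BPA, at 1.64, 2.99 and -0.44, against 3.50, 3.95 and 4.48 in control day8 and 2.79, 2.53 and 3.88 in NP day8. Slc4a1, the band 3 anion exchanger, and Rhag were too dim to be tested.

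Of 21 tested blood transcription factors and partners, 10 passed as higher and 3 as lower in control day8 against control day0, where 28.3% and 20.5% of all genes did. The largest rises were Lyl1, a close relative of Tal1 (4.55 ± 0.38), Mef2c (3.40 ± 0.58) and Zfpm1, the GATA1 cofactor FOG1 (2.92 ± 0.19). With NP 2 passed as higher and 6 as lower, where 7.90% and 6.28% of all genes did, and with BPA 2 as higher and 9 as lower, where 12% and 10.2% did. Zfpm1 gave 6.70, 6.63 and 6.15 in NP day8 and 6.92, 6.74 and 6.76 in BPA day8, against 7.91, 7.96 and 7.58 in control day8, a fall by 1.32 (SE 0.19) with NP and by 1.01 (SE 0.19) with BPA. Myb, needed for definitive but not primitive blood, rose with NP (1.57 ± 0.32) and BPA (2.16 ± 0.32) and fell between the control days by 2.52 (SE 0.32). The mean of Klf2 lay further above control day8 with each agent. It gave 9.53, 9.91 and 9.42 in NP day8 and 10.01, 9.82 and 9.78 in BPA day8, against 6.54, 7.80 and 8.02. The median change of the list was -0.64 with NP and -0.63 with BPA, and 0.06 between the control days.

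Gata2, which acts in blood progenitors before Gata1, rose between the control days by 1.99 ± 0.26 (log2, SE, limma adjusted p = 0.000215). It gave 7.09, 7.19 and 6.26 in NP day8 and 6.97, 7.38 and 7.27 in BPA day8, against 7.07, 7.20 and 6.70 in control day8, and it passed with neither agent. Its treated values overlapped the controls, as those of Gata1 did.

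Markers of vascular endothelium changed both between the control days and with the agents, and those of yolk sac endoderm passed between the control days only. Their part in the results was not tested. Of 11 tested markers of vascular endothelium, 8 passed as higher between the control days, 5 passed as lower with NP and 6 with BPA, among them Kdr, a VEGF receptor of endothelium and blood precursors (-2.54 ± 0.44 with NP and -2.94 ± 0.44 with BPA). The summed linear signal of the 12 endothelial markers was 404 to 445 in NP day8, 386 to 453 in BPA day8, 948 to 1103 in control day8 and 230 to 289 in control day0. By array the sums were 445, 404 and 404 in NP day8 and 386, 446 and 453 in BPA day8, and Kdr gave 5.40, 5.11 and 4.85 in NP day8 and 5.11, 5.54 and 3.50 in BPA day8. Of 10 markers of yolk sac endoderm all passed as higher between the control days and 0 passed with either agent, with sums of 14824 to 17171 in NP day8, 8520 to 12396 in BPA day8, 9187 to 18020 in control day8 and 126 to 159 in control day0.

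Pluripotency genes and fibroblast genes also differed. All 8 pluripotency genes passed as lower between the control days and as higher with each agent, with sums of 7572 to 11303 in NP day8, 9366 to 10242 in BPA day8, 1454 to 2598 in control day8 and 14721 to 15856 in control day0. By array the sums were 7572, 9501 and 11303 in NP day8 and 9366, 9964 and 10242 in BPA day8. Of 10 fibroblast genes, 7 passed as lower with each agent, and their sums were 441 to 759 in NP day8, 533 to 666 in BPA day8, 3817 to 5665 in control day8 and 4892 to 6292 in control day0. Between the control days 3 of these genes passed as higher and 6 as lower, so the overlapping control sums hide opposite changes. S100a4 gave 2.87, 3.81 and 2.60 in control day8, against 10.27, 10.55 and 9.81 in control day0. Postn gave 11.44, 10.75 and 11.05 in control day8, against 8.58, 8.81 and 8.31 in control day0. Against control day0, 9 passed as lower with each agent, where 11.9% of all genes did. Fibroblasts also stand for the feeder layer, and their share of the RNA was not measured.

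Few markers of other blood cells passed with either agent. Of 7 tested megakaryocyte markers 1 passed as lower with each agent, Pf4, a platelet chemokine (-1.69 ± 0.47 with NP and -2.28 ± 0.47 with BPA), and 1 passed as higher between the control days, Itga2b, an early blood marker (0.66 ± 0.24). The megakaryocyte sums were 116 to 136 in NP day8, 113 to 149 in BPA day8, 148 to 194 in control day8 and 103 to 121 in control day0. By these sums control day8 lay above control day0 and NP day8 and overlapped BPA day8. Of 9 tested macrophage markers, 2 passed as higher with each agent, Cd68 and Laptm5, and sums were 303 to 408 in NP day8, 393 to 543 in BPA day8, 233 to 371 in control day8 and 358 to 412 in control day0. Between the control days 3 of these markers passed as higher and 3 as lower. Csf1r gave 6.76, 6.97 and 7.36 in control day8, against 4.16, 4.18 and 3.98 in control day0, and its treated values overlapped those of control day8. Ptprc, the gene of the leukocyte antigen CD45, was too dim to be tested. The part of these cells in the results was not tested.

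**Figure D4:**
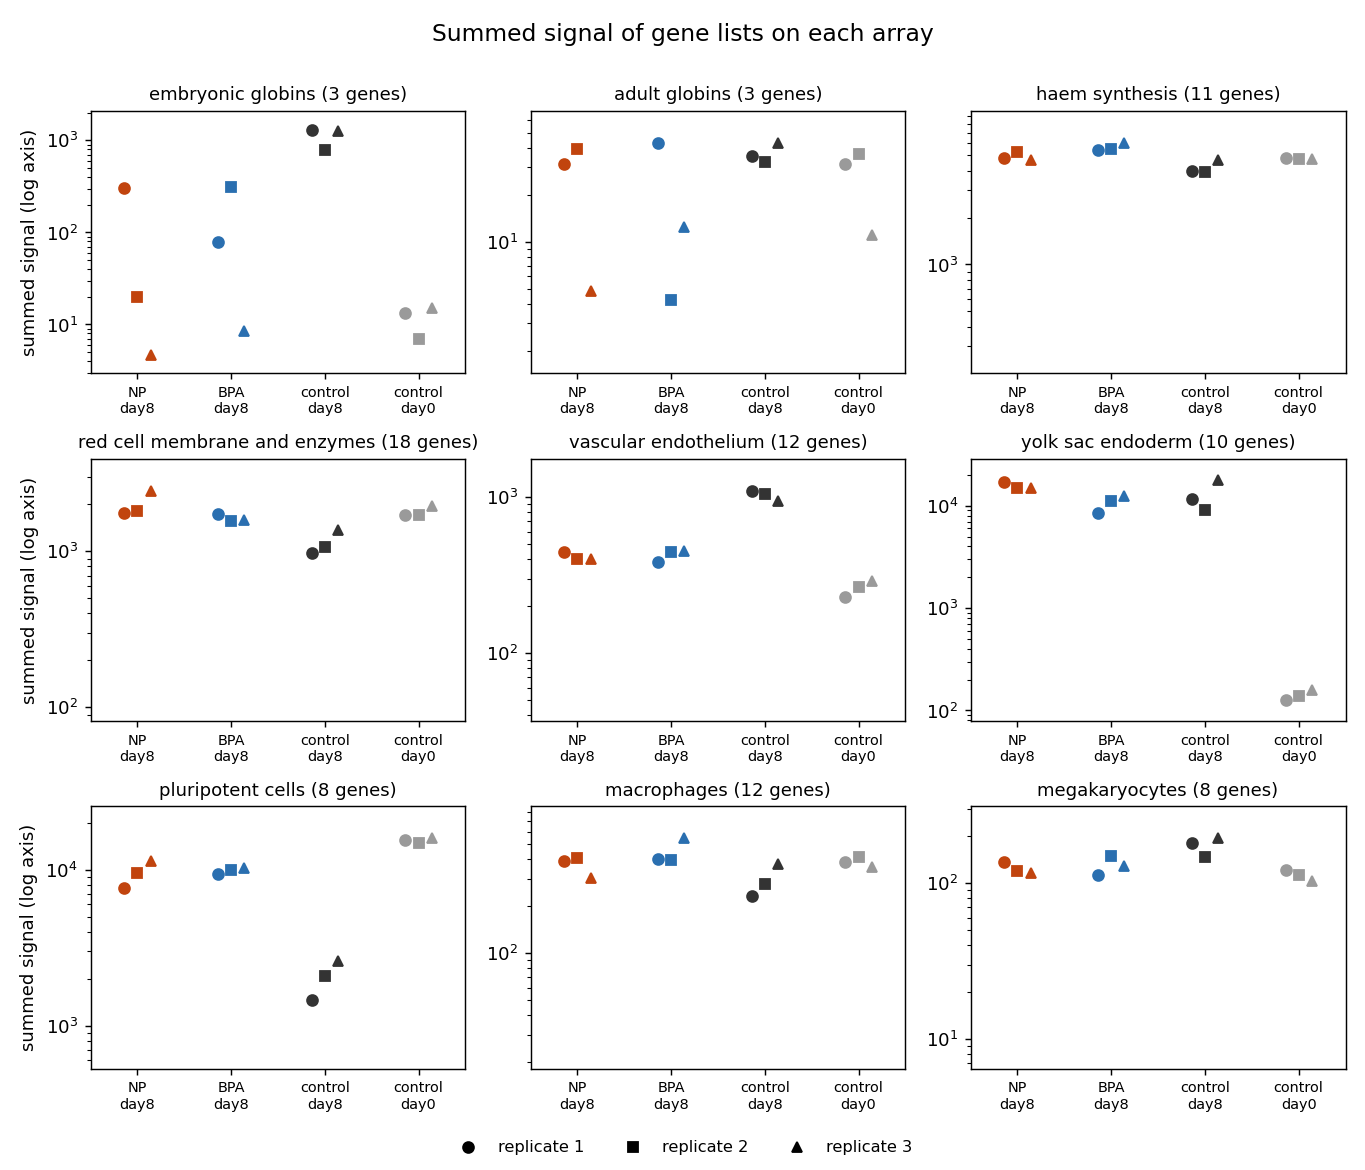
Summed linear signal on each array (vertical log axis) for the embryonic globins, related gene lists and markers of other cell types, with a panel for each list and a symbol for each replicate, with arrays grouped as NP day8, BPA day8, control day8 and control day0 (horizontal axis). The endothelial sums fall into separate ranges for treated and control day8 arrays, while the yolk sac endoderm sums of control day8 overlap those of each treated group.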

How the data were processed

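Total RNA of 12 samples was hybridised to Affymetrix arrays. The authors deposited log2 signals per probe set, made with MAS5 per the submitters' processing notes; version, scaling target and annotation build are not given in the sources used here. The table held 45101 probe sets, 64 of them controls; the gene table named 1 gene for 34958, several for 932 and none for 9211, and 34741 of 34945 non-control ones with 1 gene were matched by Entrez identifier to RefSeq (GRCm38.p6), all 9 genes included. The deposited scale was kept, without a pseudocount or rescaling. A filter passed the brightest 60% of probe sets, and each gene took its brightest one, giving 13066 genes. Group means were modelled on all 12 arrays in limma 3.58.1 (R 4.3.3, 8 residual and 1.57 prior degrees of freedom), with 2-sided tests, Benjamini-Hochberg adjustment over all genes tested and a threshold of 0.05, for 6 comparisons.

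The background level was the highest of 36 TrpnX values, 10.6 on the linear scale. If a group had no array above it, the fold was taken from that level and is a lower bound. The members, gene lists and tests were chosen with earlier results of these data known. Named list genes are mostly ones past the threshold, up to 3 in each direction. With the agents they are not always those with the largest changes of their lists. A few too dim to be tested were chosen after their values were seen. Gata2, Ptprc, Rhd, Trim10, Klf2, Csf1r, S100a4 and Postn, and Mef2c with the agents, were also named after their values were seen. Same-numbered arrays of different groups deviated together little (18 pairs, r from -0.01 to 0.08), which cannot exclude a pairing. Alternatives were 16 added to the signal, other filters, quantile and median scaling, other probe set and variance choices, only the compared groups, a replicate block, each array left out in turn and, chosen after seeing the data, low values set to background and each probe set tested on its own. The fit was tested on simulated data. The number of arrays limits the precision. Plots used Python 3.11.15 and matplotlib 3.10.9.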

Additional observations from a re-analysis of the deposited data

How the results depend on the processing

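Of the changes of the 6 tested members under alternative settings, 718 kept direction and side of the threshold, 42 lost the call, 34 gained it and 22 turned direction. For the members too dim for the filter, 23 values moved by no more than the spread between replicates and 7 by more, all with 16 added, where Hbb-y in NP day8 against control day0 was -0.15, against 1.52. The causes were not tested, apart from settings that by construction drop genes, arrays or low values. With 16 added to the signal, the members called were 5 in NP day8 against control day8, 6 in BPA day8 against control day8 and 2 in BPA day8 against control day0, where 8.64%, 12.5% and 23.0% of all genes passed in the members' direction. With low values set to background they were 4, 4 and 2, where 8.30%, 12.2% and 22.7% did, with a variance prior that follows the mean 3 in BPA day8 against either control, and with quantile scaling 0 in BPA day8 against control day0. Without the filter they were 1 with NP and 2 with BPA against control day8, and with the mean of the probe sets of a gene 1 with NP. With the 40% highest probe sets they were 1 with NP against control day8 and 2 between the control days. With only the compared groups in the fit they were 1 with NP and 2 with BPA against control day8, and 0 with either against control day0. Leaving out 1 array gave 0 to 2 with NP and 1 to 2 with BPA against control day8, and 0 to 1 with NP and 0 to 2 with BPA against control day0. Over the 22 alternatives 4.94% to 20.5% of all genes were called in either direction with NP and 12.4% to 31.2% with BPA against control day8, 19.5% to 43.3% and 20.1% to 45.0% against control day0, and 32.2% to 59.5% between the control days.

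The replicate block gave 0 members in NP day8 against control day8 (Hba-x adjusted p = 0.0556, Lmo2 adjusted p = 0.0645) and 0 in BPA day8 against control day0. The labels do not say whether replicate numbers pair the arrays. Over all genes, 1852 were called in NP day8 against control day8, 1182 without the filter, 645 with only the compared groups and 802 to 1874 with 1 array left out. In BPA day8 against control day8 the 2906 calls were 1822 to 2949 with 1 array left out. The single call in NP day8 against BPA day8 was 0 with 16 added, the compared groups only, the replicate block, the 40% filter, low values at background or the prior that follows the mean, 3 with the mean of probe sets, 4 without the filter and 0 to 3 with 1 array left out.

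Median centring turned the share of calls that were higher to 38.9%, against 58% as deposited, between the control days, where it moved the median of all genes to -0.15. With BPA and NP against control day8 that share was 65.2% and 66.6%, against 54% and 55.7% as deposited, and against control day0 43.7% and 41%, against 64.6% and 62.9%. Under both scalings 0 called members or list genes changed sign in the comparisons with a control group.

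The changes that turned direction had not passed the threshold. In NP day8 against BPA day8, Hbb-bh1 gave -0.24 with 16 added, -0.46 at background, -0.30 as the mean of probe sets, -1.43 for 1437990_x_at and -2.25 to 1.96 with 1 array left out, Epor -0.11 at background and -0.39 to 1.01 with 1 array left out, Tal1 0.05 at background and -0.66 to 0.28 with 1 array left out, and Lmo2 -0.00 to 0.61 with 1 array left out. Against control day0, NP gave -0.16 at background and -0.47 to 0.73 with 1 array left out for Epor, -0.03 and -0.67 to 1.64 for Tal1, and -0.47 to 2.82 for Hbb-bh1 with 1 array left out. BPA gave -0.08 at background and -0.33 to 1.98 with 1 array left out for Tal1, and with 1 array left out -0.98 to 0.71 for Epor and -0.71 to 3.51 for Hbb-bh1. Signal over background limits Hba-x, Hbb-y, Klf1 and Alas2 most, since low log2 values scatter widely.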

Other observations

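Genes of iron handling and of the pathways of erythropoietin and KIT, a receptor needed by blood precursors, were listed as neighbours of the red cell programme. Of 10 tested iron genes, 4 passed as higher and 2 as lower in control day8 against control day0, near the 28.3% and 20.5% of all genes, and the changes furthest from 0 were those of Slc40a1, the iron exporter ferroportin (3.97 ± 0.28, log2, SE), and Hmox1, haem oxygenase 1 (-1.39 ± 0.15). With NP 2 passed as higher and 0 as lower, where 7.90% and 6.28% of all genes did, and with BPA 3 passed as higher and 0 as lower, where 12% and 10.2% did. Tfrc, the transferrin receptor through which red cell precursors take up iron, gave 11.37, 11.42 and 11.41 in NP day8 and 11.45, 11.56 and 11.73 in BPA day8, against 10.90, 11.07 and 11.03 in control day8. It rose with NP (0.40 ± 0.10) and with BPA (0.58 ± 0.10), while the globins lay lower in the same samples.

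Of 15 tested genes of erythropoietin and KIT signalling, 7 passed as higher and 3 as lower between the control days, beside the same shares of all genes. Kitl, the ligand of KIT, rose (2.36 ± 0.24), as did Jak2, the kinase bound to the erythropoietin receptor (1.03 ± 0.22). With NP 1 passed as higher and 2 as lower, and with BPA 4 as higher and 2 as lower. Kitl fell by 1.66 (SE 0.24) with NP and by 1.41 (SE 0.24) with BPA, and Pim1 rose with NP (0.73 ± 0.11) and BPA (0.61 ± 0.11). No gene of either list passed in NP day8 against BPA day8.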
